A study of Homo sapiens with 7 samples.

Results

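The genes of cGMP signalling were examined for peaks of PPARα, a nuclear receptor that fatty acids activate. The 10 genes encode phosphodiesterases that break down cGMP (PDE9A, PDE5A, PDE1A) and the cGMP-dependent kinases (PRKG1, PRKG2). They also encode the natriuretic peptide receptors that make cGMP (NPR1, NPR2), 2 natriuretic peptides (NPPA, NPPB) and the protease that cleaves pro-atrial natriuretic peptide (CORIN). They were chosen by membership of the pathway of phosphodiesterase 9 inhibition, which the title of the series names, out of 19974 protein-coding genes on chromosomes 1 to 22 and X. A peak was counted for a gene when its summit lay in the gene's span or within 50 kb of it, which is called the window below. The 10 windows held 203 peaks, which merged into 114 regions out of 92292 in all.

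The cells were HepG2, a line from a human hepatocellular carcinoma, with 2 libraries in each of 3 groups. All groups carried a PPARα expression vector, received the PPARα agonist WY14643 (written in the labels as both Wy13643 and Wy14643) at 10 µM for 2 h from 48 h after transfection, and were precipitated with an antibody to PPARα. The PPARα group had this alone. The PPARα+ERα group also carried a vector for estrogen receptor alpha and was first given its selective agonist PPT at 10 nM for 45 min, and the PPARα+ERβ group carried estrogen receptor beta and was given its agonist DPN at 10 nM for 45 min. PPARα was thus overexpressed in every group, and no group lacked its agonist. The labels do not say whether the 2 libraries of a group came from separate cultures, and a sample without antibody was not analysed here. Peak lists hold no expression, so neither the cell line nor the transfected receptors were checked against marker genes. Peaks in the genomic windows of the transfected genes check no label: ESR1, the ERα gene, had 5 and 6 in each of the PPARα and PPARα+ERα groups and 5 and 8 in the PPARα+ERβ group.

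cGMP is a second messenger made by receptor guanylyl cyclases when natriuretic peptides bind them, and by soluble cyclases when nitric oxide does. It activates cGMP-dependent protein kinases, and phosphodiesterases end the signal. Phosphodiesterase 9 is specific for cGMP and is known for controlling the natriuretic peptide pool of cGMP in the heart, whereas phosphodiesterase 5 is best known for the nitric oxide pool. In fat and muscle, natriuretic peptides acting through NPR1 are known to raise lipolysis and mitochondrial gene expression. PPARα binds DNA with the retinoid X receptor at direct repeats of the hexamer AGGTCA that are spaced by 1 base, and estrogen receptors bind inverted repeats of the same hexamer.

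The lists differed in depth. The spacing of fragments implied by the peak caller's background was 449.9 to 537 bp per fragment in the PPARα and PPARα+ERβ libraries and 726 and 779 bp in the PPARα+ERα libraries. The median fragments at a summit were 27 to 50 in the former lists and 9 and 10 in the latter. The lists held 17457 to 36302 peaks each.

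Of the 10 genes, 8 had promoter sequences (RefSeq, GRCh38.p14, 250 bases before to 50 after a start), 17 in all, and PDE9A and NPPB had no entry. Summits lay within 1 kb of these starts at PRKG2 alone. They sat 911 bp downstream of the start (base 81215222 of chromosome 4, minus strand), at the identical base 81214311 in 4 libraries, those of the PPARα and PPARα+ERβ groups. Across all 34961 starts, 1.20 to 1.89% had a summit that near, depending on the library. The PRKG2 promoter is shown first because it is the nearest to a recurrent region. The second sequence, the promoter of the noncoding gene LOC124900726, runs in the opposite direction inside PRKG2. It is shown because its first 34 bases, in capitals, lie under that region, and they are the only bases under any of the 114 regions that the promoter table holds. Of the peaks in the 4 libraries, only that of PPARα library 2 reaches these bases, at its edge. The last, from PDE1A, shows the hexamer in capitals.
PRKG2, chr4:81215173-81215472, minus strand: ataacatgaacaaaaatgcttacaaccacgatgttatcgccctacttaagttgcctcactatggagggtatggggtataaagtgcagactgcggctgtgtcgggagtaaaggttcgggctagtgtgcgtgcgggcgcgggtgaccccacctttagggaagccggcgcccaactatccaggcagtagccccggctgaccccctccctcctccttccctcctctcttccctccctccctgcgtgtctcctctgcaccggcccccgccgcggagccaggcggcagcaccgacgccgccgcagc
LOC124900726, chr4:81214636-81214935, plus strand: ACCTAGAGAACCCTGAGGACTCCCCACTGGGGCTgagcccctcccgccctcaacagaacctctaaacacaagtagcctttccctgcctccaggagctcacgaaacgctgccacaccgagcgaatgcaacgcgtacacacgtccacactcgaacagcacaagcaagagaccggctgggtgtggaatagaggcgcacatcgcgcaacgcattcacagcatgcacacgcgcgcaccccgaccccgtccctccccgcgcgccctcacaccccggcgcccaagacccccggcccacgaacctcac
PDE1A, chr2:182522477-182522776, minus strand: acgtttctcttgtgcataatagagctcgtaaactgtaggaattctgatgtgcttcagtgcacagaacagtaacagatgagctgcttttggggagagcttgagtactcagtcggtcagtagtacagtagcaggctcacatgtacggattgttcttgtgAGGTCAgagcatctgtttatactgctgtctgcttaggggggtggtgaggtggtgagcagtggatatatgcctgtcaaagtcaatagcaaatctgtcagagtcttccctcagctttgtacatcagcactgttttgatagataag

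The hexamer AGGTCA, searched on both strands, occurred in 2 of the 17 promoters, which overlap each other at PDE1A and share a single copy. Among all 35097 promoters of 300 bases, 13.8% held it. The direct repeat, 2 hexamers in the same direction with any 1 base between them, was in none of the 17 and in 0.0228% of all promoters. The inverted repeat, GGTCA and TGACC with any 3 bases between them, was in none of the 17 and in 0.0570% of all. Any promoter with the direct repeat also holds the hexamer. No other sequence under the peaks was available here.

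Peaks were spread unevenly over the pathway. PRKG1 alone held 108 of the 203 peaks (53.2%) on 40.7% of the combined window length, PDE1A held 34, CORIN 22, NPR1 16, PRKG2 10, PDE9A 7 and PDE5A 5. A single peak served NPPA and NPPB, whose windows overlap, and NPR2 had no peak. Of all protein-coding genes, 4.84% had no peak in their window. Per Mb, the combined windows had 10.4 and 13.3 peaks (PPARα), 7.80 and 10.7 (PPARα+ERα), and 6.93 and 9.53 (PPARα+ERβ). All protein-coding windows together had 8.96 and 14.4 (PPARα), 9.44 and 10.6 (PPARα+ERα), and 6.93 and 9.43 (PPARα+ERβ). The pathway's pooled density was above that of all genes in 3 libraries, below it in 2 and equal to it, at the digits shown, in PPARα+ERβ library 1. Taken gene by gene, the median of the 10 was below the median protein-coding gene in every library. Per Mb it was 3.69 and 9.41 against 8.48 and 14.6 (PPARα). It was 4.30 and 8.63 against 8.53 and 9.14 (PPARα+ERα), and 3.61 and 4.47 against 7.03 and 9.07 (PPARα+ERβ).

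**Figure D1:**
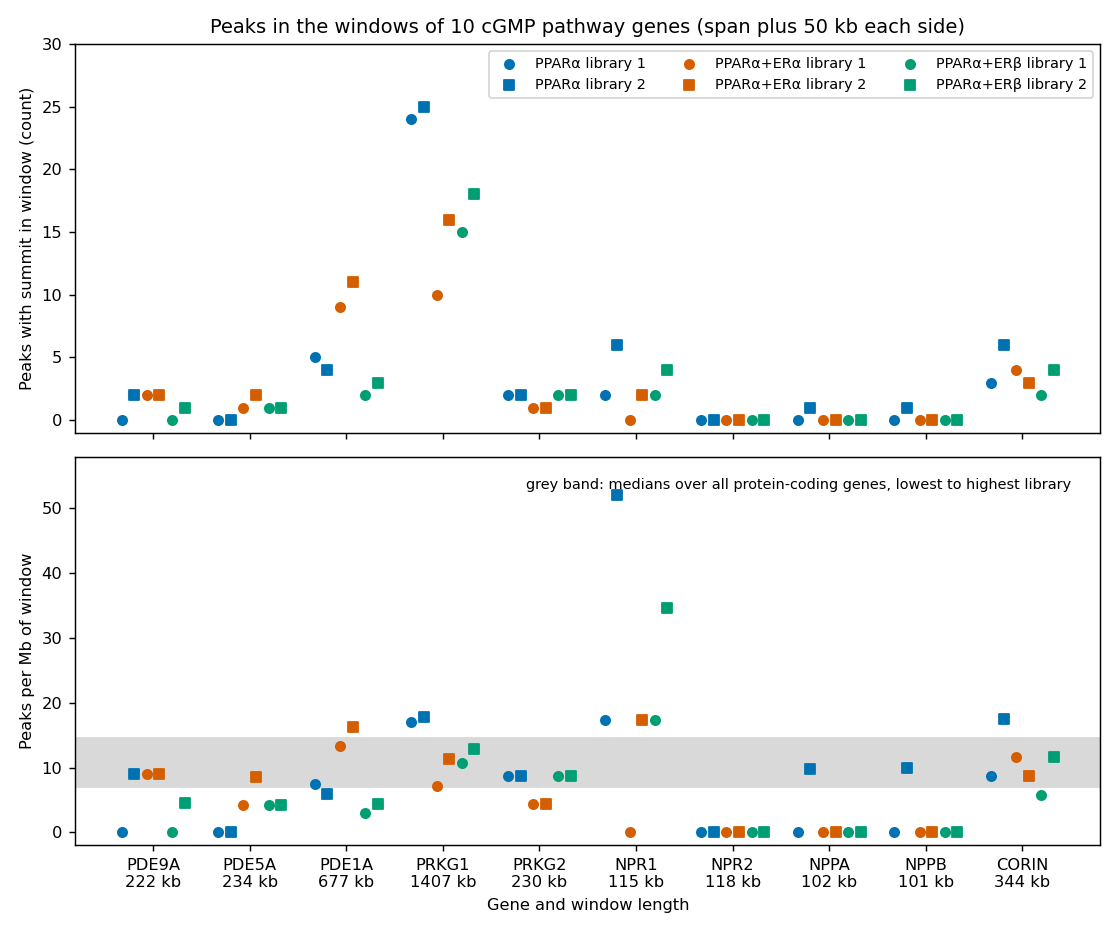
Number of peaks (upper) and peaks per Mb of window (lower) for each of the 10 genes, 1 point per library, with window lengths under the gene names. PRKG1 has the most peaks in every library (10 to 25), and per Mb the NPR1 window stands highest in PPARα library 2 (52.0) and PPARα+ERβ library 2 (34.7), while NPR2 is at 0 in all 6.

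Of the 114 regions, 49 had a peak in 2 or more libraries (43.0%, against 39.9% of all regions) and 65 in 1 library only. None was shared by 5 or 6 libraries, and the 13 regions found in 4 libraries were each shared by the PPARα and PPARα+ERβ groups. Occupied is used for a region with peaks from both libraries of a group. By that rule 5 of the 10 genes, PRKG1, PDE1A, PRKG2, NPR1 and CORIN, had an occupied region in any group, and PDE9A, PDE5A, NPR2, NPPA and NPPB had none. Of all protein-coding genes, 75.7% had one. With windows extended to 100 kb, PDE9A gained 1 occupied region and NPR2, NPPA and NPPB 2 each, which left PDE5A alone with none, and NPR1 had 5 in place of 2. Leaving out a library lets the other stand for its group, which raised several of these counts. Without PPARα library 1, PDE9A had 2, NPPA and NPPB 1 each, NPR1 6 in place of 2 and CORIN 7 in place of 4. Without PPARα+ERα library 1, PDE9A and PDE5A had 2 each and NPR1 4, and without its library 2 they were 2 for PDE9A, 1 for PDE5A and 7 for CORIN. Without PPARα+ERβ library 1, PDE9A and PDE5A had 1 each and NPR1 4, and without its library 2 PDE5A had 1. PPARα occupied a region at 5 genes (60.5% of all genes), PPARα+ERβ at 4 (46.6%) and PPARα+ERα at 3 (38.0%). Longer windows hold more peaks, so these shares describe genes of every length, with a median window of 124 kb.

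PDE9A, the target of the inhibitor named in the series title, had no recurrent peak in any group. Its window (chromosome 21, span 42653621 to 42775509) held 0 and 2 peaks in the PPARα group, 2 and 2 in the PPARα+ERα group, and 0 and 1 in the PPARα+ERβ group. The PPARα group overlapped both others, and PPARα+ERα was above PPARα+ERβ without overlap (p = 0.333, the smallest possible, exact permutation test, two-sided). Inside the gene, the 3 peaks came from PPARα+ERα libraries, at 3 different places between 42713656 and 42727503, with fold 4.39 to 4.80 and 7 to 11 fragments at the summit. Fold is the enrichment that the authors deposited for each summit relative to the background around it, and it serves to rank peaks of the same list. The only PDE9A region seen in more than 1 library lay 20.9 kb beyond the gene at 42796313 to 42796684, in PPARα library 2 (fold 3.25) and PPARα+ERβ library 2 (3.45). The background around it was raised, at 29.0 and 23.1 times the genome-wide level of each list. Among the 2665 genes with a window at least as long, 6.04% had no occupied region. Such sets, also used for other genes below, include longer windows, which hold more peaks.

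PDE5A, the phosphodiesterase blocked by sildenafil, had no peak in either PPARα library. Among genes with windows at least as long (234 kb), 1.83% lacked PPARα peaks and 5.54% lacked an occupied region. Its 5 peaks, 1 and 2 from PPARα+ERα libraries and 1 from each PPARα+ERβ library, lay at 5 different places. The strongest, at 119669662 to 119670029 on chromosome 4, was 40.9 kb outside the gene in PPARα+ERα library 2 (fold 8.46, 11 fragments). The peak nearest a promoter lay 2.78 kb from a PDE5A start, at 119624701 to 119625026, in PPARα+ERβ library 1 (fold 2.40). No PDE5A peak was repeated in a second library of any group.

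PDE1A, a calmodulin-stimulated phosphodiesterase that hydrolyses both cGMP and cAMP, was the only one of the 3 phosphodiesterases with occupied regions. Its window (chromosome 2, span 182140041 to 182716797) held 5 and 4 peaks in the PPARα group, 9 and 11 in the PPARα+ERα group, and 2 and 3 in the PPARα+ERβ group. PPARα+ERα libraries were the highest and PPARα+ERβ libraries the lowest, with no overlap between groups. The difference between PPARα+ERα and PPARα had p = 0.333 (exact permutation test, two-sided), the smallest value that 2 libraries against 2 can give, so no such count can reach significance here.

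No PDE1A region had peaks with both PPARα and PPARα+ERα. Of 10 occupied regions, 5 had peaks in PPARα+ERα libraries alone, 3 in both PPARα libraries but not in both PPARα+ERβ libraries, 1 in both of these groups, and 1 in both PPARα+ERβ libraries. A site is called bound here where a list has a peak. The strongest PPARα+ERα region, at 182648520 to 182649065, had fold 12.95 and 10.6 from 17 and 14 fragments. A second was at 182658056 to 182658395 (7.91 and 9.16). The others were at 182451385 to 182451850 (9.35 and 7.05), 182364485 to 182364825 (8.39 and 5.66) and 182712233 to 182712572 (4.50 and 6.26). Their local backgrounds were 1.00 to 2.57 times the genome-wide level.

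With PPARα, the strongest PDE1A region was at 182423418 to 182423963, with fold 9.34 and 10.9 in the PPARα libraries and 5.93 in PPARα+ERβ library 2. It lay 3.15 kb from an annotated PDE1A start and held 69, 90 and 51 fragments on a background 10.9 to 11.0 times the genome-wide level. The region at 182316841 to 182317267 was bound in all 4 libraries of the PPARα and PPARα+ERβ groups (fold 4.44 and 5.53, and 2.90 and 2.50). Those at 182271187 to 182271626 (2.97 and 3.12) and 182443327 to 182443715 (3.25 and 3.30) were bound in PPARα libraries alone, on backgrounds of 44.7 to 52.8 times. PDE1A is on the minus strand, and a region at 182718730 to 182719265 lay 2.28 kb outside the 5′ end of its span. Inside the neighbouring chaperone gene DNAJC10, it was bound in both PPARα+ERβ libraries (5.33 and 4.76) and PPARα+ERα library 2 (4.37). It had a peak in no PPARα library. The remaining 10 PDE1A regions were in 1 library each, 9 of them with PPARα+ERα (fold 3.20 to 9.74).

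**Figure D2:**
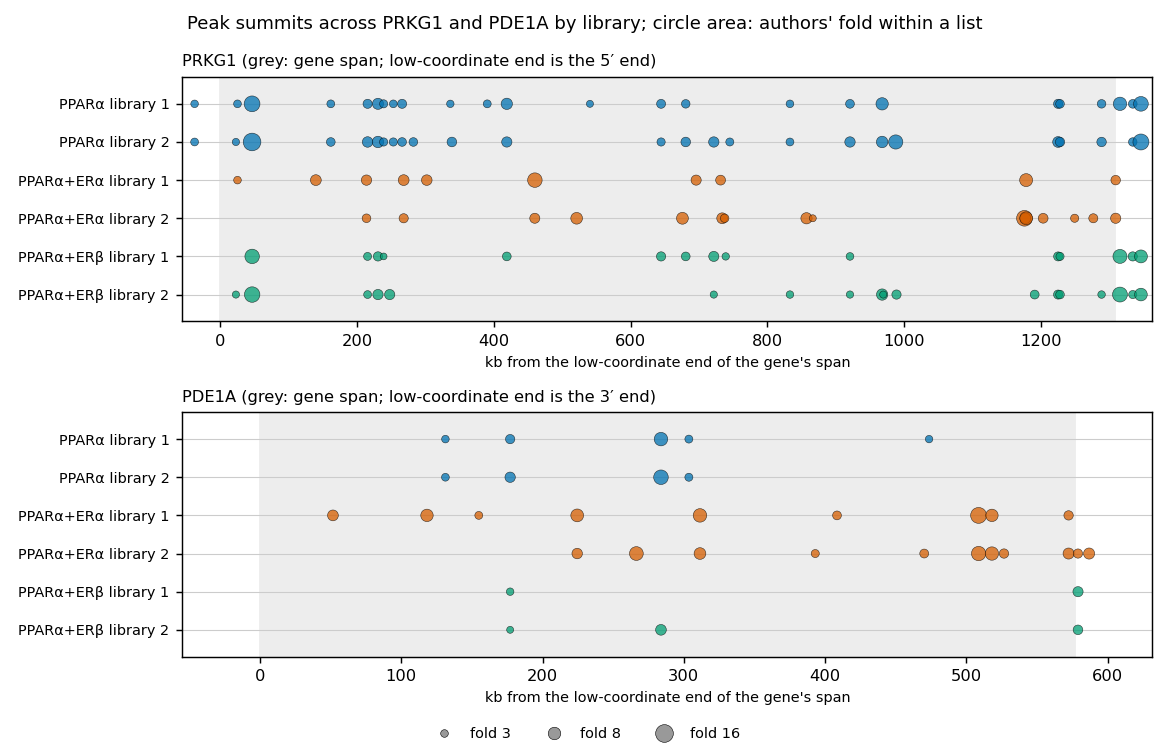
Peak summits along PRKG1 (upper) and PDE1A (lower), 1 row per library, with distance in kb from the low-coordinate end of the gene and circle area for the authors' fold within each list. Columns of summits recur across the PPARα and PPARα+ERβ rows, 18 regions at PRKG1, while the PPARα+ERα rows have summits at other positions, with 1 region shared with PPARα at PRKG1 and 0 at PDE1A.

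PRKG1 encodes cGMP-dependent protein kinase I, the kinase that relaxes smooth muscle, and its gene is among the longest in the genome (chromosome 10, span 50990888 to 52298350). Its window held 24 and 25 peaks in the PPARα group, 10 and 16 in the PPARα+ERα group, and 15 and 18 in the PPARα+ERβ group. PPARα libraries were the highest, without overlap with the others, and the other groups overlapped (p = 0.333 for PPARα+ERα and also for PPARα+ERβ against PPARα, exact permutation test, two-sided). Per Mb these were 17.1 and 17.8, 7.105 and 11.4, and 10.7 and 12.8, where the median protein-coding gene had 8.48 and 14.6, 8.53 and 9.14, and 7.03 and 9.07. Peaks made 55 regions, of which 26 were occupied. By that rule 11 were occupied only in the PPARα group, 8 in the PPARα and PPARα+ERβ groups, 2 only in the PPARα+ERβ group and 5 only in the PPARα+ERα group. A region not occupied in a group could still have a peak in 1 of its libraries. Of the PRKG1 regions occupied with PPARα, 4 had no PPARα+ERβ peak. Of those occupied with PPARα+ERβ, 0 lacked a PPARα peak.

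Among the 8 PRKG1 regions bound in 4 libraries, those of the PPARα and PPARα+ERβ groups, the one ranked first, by its lowest −log10 q percentile over the libraries, lay 38.2 kb past the gene's 3′ end at 52336417 to 52336992. Its fold was 11.1 and 13.1 with PPARα and 8.58 and 8.23 with PPARα+ERβ, from 51 to 87 fragments. A region near the 5′ end, at 51037781 to 51038214, had the highest PRKG1 fold in the PPARα libraries (12.8 and 15.95, and 10.7 and 12.3 with PPARα+ERβ). Its local background was low, 1.00 to 1.23 times the genome-wide level, and it lay 36.6 kb upstream of the nearest listed start. The region at 52215397 to 52215963 stacked the most fragments, 116 and 179 with PPARα and 110 and 102 with PPARα+ERβ, but on a background 32.9 to 44.2 times the genome-wide level, so that its fold was 4.22 to 6.08. The other 5 such regions were at 51221388 to 51221892 (fold 6.35, 6.76, 4.42 and 5.44), 51911321 to 51911771 (3.99, 5.55, 3.04 and 2.74), 52218212 to 52218571, 52324268 to 52324733 and 51206492 to 51206904. The last 3 of these had fold 3.16 to 5.701.

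A further 9 PRKG1 regions had peaks in 3 of these 4 libraries. The region at 52305713 to 52306098, 7.55 kb past the 3′ end, was bound in both PPARα+ERβ libraries (fold 10.1 and 11.4) and PPARα library 1 (9.16), but not in PPARα library 2. The regions at 52278904 to 52279409, 51958199 to 51958561 and 51409856 to 51410192 were bound in both PPARα libraries (fold 3.76 and 4.62, 7.78 and 6.79, and 6.57 and 5.42) and in a single PPARα+ERβ library (2.93, 6.55 and 3.93). PPARα+ERα occupied 5 PRKG1 regions, described here after their values were seen. The strongest were at 52168705 to 52169046 (8.63 and 8.46, 11 fragments in each library) and 51450849 to 51451254 (10.8 and 5.20). One at 52299464 to 52300312, the widest of all member regions at 849 bp, began just past the 3′ end of the gene (4.66 and 5.39). A single PRKG1 region joined the PPARα and PPARα+ERα groups, at 51016308 to 51016688, with fold 3.09 in PPARα library 1 and 2.997 in PPARα+ERα library 1. By −log10 q these 2 peaks were among the weakest of their lists, at the 2.70 and 1.22 percentile, from 11 and 8 fragments.

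PRKG2, cGMP-dependent protein kinase II, which is anchored to membranes and known for its part in bone growth and intestinal secretion, had the same pair of regions in every PPARα and PPARα+ERβ library. Its window (chromosome 4, span 81087370 to 81217836) held 2 peaks in each PPARα library, 2 in each PPARα+ERβ library and 1 in each PPARα+ERα library. The 2 PPARα peaks were at the same places in all 4 libraries. The region beside the start shown above, at 81214156 to 81214669, had fold 3.40 and 6.50 with PPARα and 3.83 and 3.92 with PPARα+ERβ, from 22, 48, 25 and 30 fragments. The region deeper in the gene, at 81119365 to 81119693, had fold 4.72 and 6.10, and 5.01 and 4.80. No PPARα+ERα peak lay inside PRKG2, and the 2 in its window were outside the gene, 1 of them in BMP3, a bone morphogenetic protein gene.

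**Figure D3:**
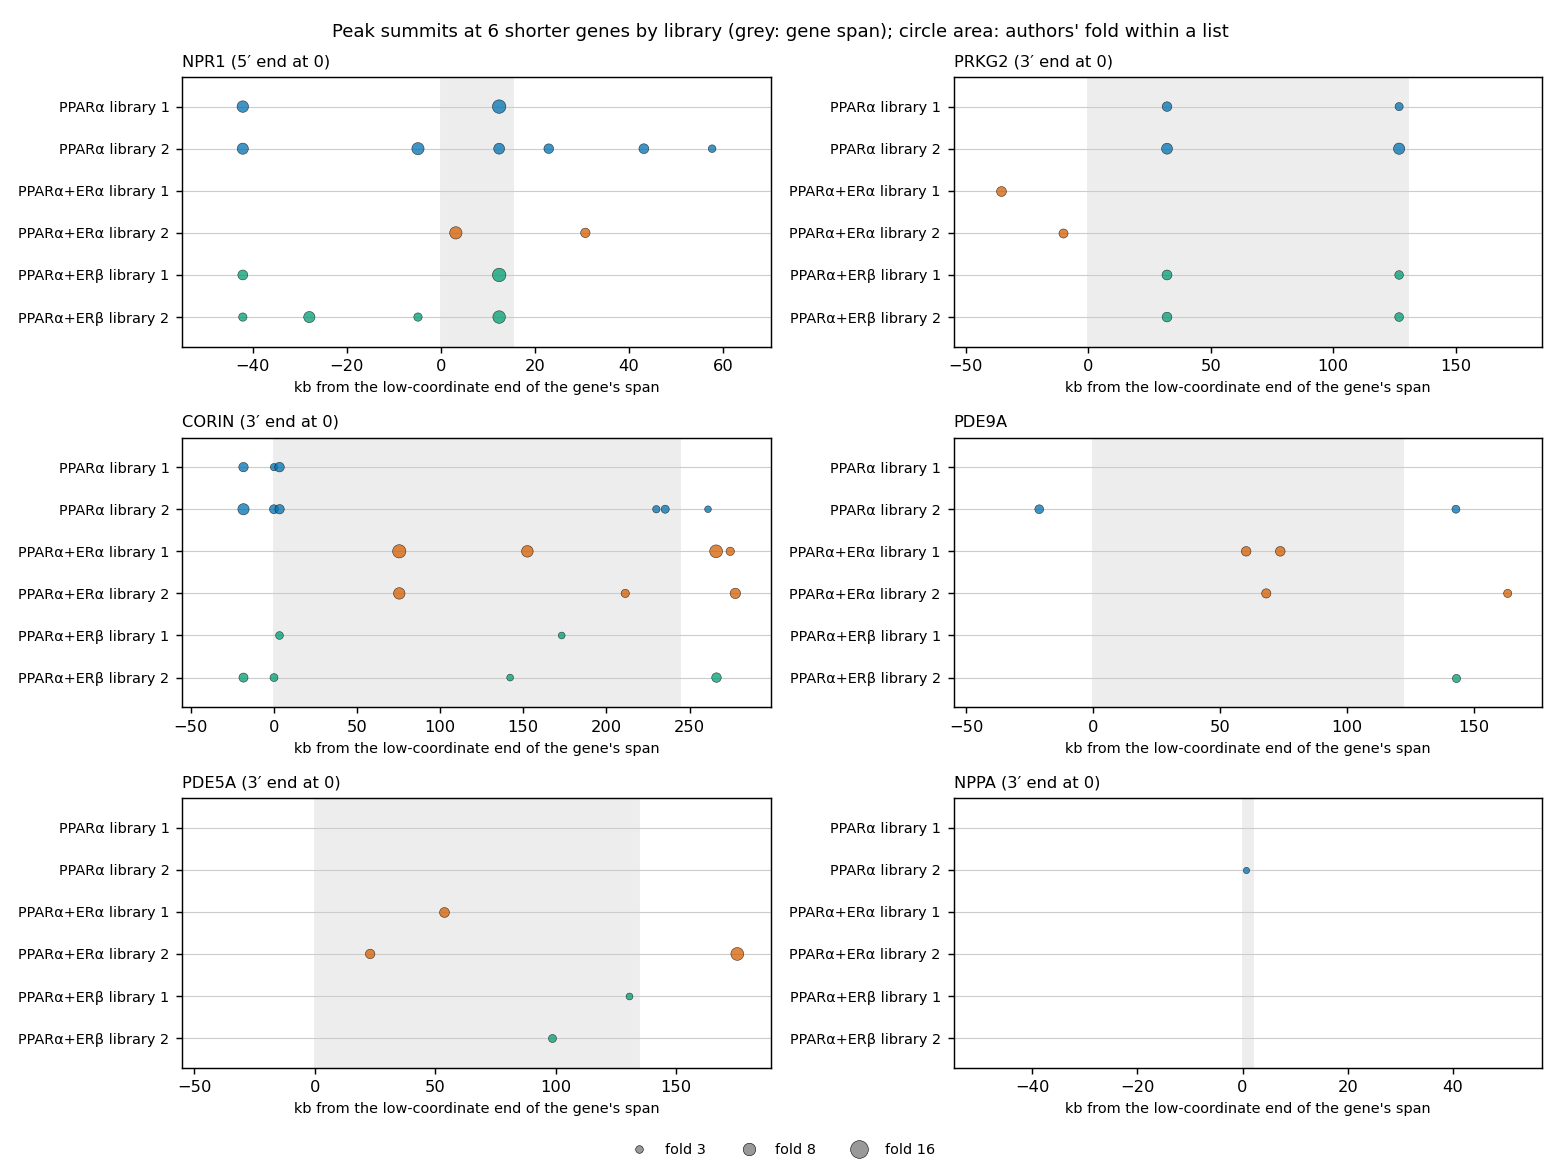
Peak summits in the windows of NPR1, PRKG2, CORIN, PDE9A, PDE5A and NPPA, 1 row per library, in kb from the low-coordinate end of each gene, with circle area for the authors' fold within each list. NPR1 and PRKG2 show summits at matching positions in both PPARα and both PPARα+ERβ rows, and CORIN shows them near 0 in both PPARα rows and 1 PPARα+ERβ row at a time, while PDE9A, PDE5A and NPPA show no position repeated within a group.

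NPR1, the guanylyl cyclase receptor for atrial and B-type natriuretic peptides, had a recurrent region inside the gene (chromosome 1, span 153678688 to 153693992). At 153690955 to 153691413, 2.89 kb before the 3′ end, fold was 9.29 and 6.07 with PPARα and 9.28 and 8.07 with PPARα+ERβ. Its background was low, 1.23 to 2.44 times the genome-wide level, and it rested on 15, 15, 15 and 21 fragments. No PPARα+ERα library had a peak there. PPARα+ERα library 2 had a peak 3.20 kb from the start instead, at 153681745 to 153682070 (fold 7.75), which library 1 did not repeat.

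The NPR1 window is rich in other genes and held 2 and 6 peaks in the PPARα group, 0 and 2 in the PPARα+ERα group, and 2 and 4 in the PPARα+ERβ group. The groups overlapped, and library 2 of each group had more peaks than library 1, as it did over the whole list. A region at 153636411 to 153636835, inside CHTOP, an mRNA export factor gene, and near an end of S100A13, was bound in the PPARα group (fold 6.79 and 6.36) and the PPARα+ERβ group (5.01 and 3.54). It lay 42.1 kb from NPR1, so distance gives it no particular tie to that gene. A region near an end of ILF2, 4.86 kb upstream of NPR1 at 153673581 to 153673985, was bound in PPARα library 2 (7.62) and PPARα+ERβ library 2 (3.56). Per Mb the NPR1 window was at the 80.4 and 98.6 percentile of protein-coding genes with PPARα and at the 86.2 and 96.2 percentile with PPARα+ERβ, but at the 15.6 and 75.7 percentile with PPARα+ERα. The 15.6 is the rank shared by all genes with 0 peaks in that library. These ranks rest on few peaks, and 11 of the window's 16 lay outside NPR1.

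NPR2, the receptor for C-type natriuretic peptide, had no peak in any of the 6 libraries within 50 kb (chromosome 9, span 35791591 to 35809731). Of the 11464 genes with a window at least as long, 2.03% had none either, and of all protein-coding genes 4.84%. NPPA and NPPB, which encode atrial and B-type natriuretic peptides and lie next to each other on chromosome 1, shared 1 peak. It was inside NPPA at 11846295 to 11846634, in PPARα library 2 alone, with fold 2.01. By −log10 q it was among the weakest 0.6% of that list, 29 fragments on a background of 20.5 times.

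CORIN, the transmembrane protease that cleaves pro-atrial natriuretic peptide, had 3 regions occupied with PPARα, all within 18.2 kb of the 3′ end (chromosome 4, span 47594001 to 47838067, minus strand). Its window held 3 and 6 peaks in the PPARα group, 4 and 3 in the PPARα+ERα group, and 2 and 4 in the PPARα+ERβ group, and the groups overlapped. Regions at 47593981 to 47594321 and 47597352 to 47597752, 0.125 and 3.45 kb inside the 3′ end, were bound in both PPARα libraries (fold 2.72 and 4.09, and 4.70 and 4.50). The first recurred in PPARα+ERβ library 2 (3.24) and the second in PPARα+ERβ library 1 (3.10). Another, 18.2 kb outside in the neighbouring flippase gene ATP10D at 47575571 to 47575939, was bound in both PPARα libraries (4.54 and 6.46) and PPARα+ERβ library 2 (4.22). The other 3 CORIN regions with a PPARα peak were in PPARα library 2 alone, 8.74 to 17.0 kb from the 5′ end. PPARα+ERα occupied 1 region, deep in the gene at 47669256 to 47669587 (8.99 and 6.74, 17 and 13 fragments), where no other library had a peak. At 47859860 to 47860223, in NFXL1, PPARα+ERα library 1 (8.39) and PPARα+ERβ library 2 (4.66) each had a peak.

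Set against PPARα alone, the PPARα+ERα group addresses where PPARα sites differ when ERα and its agonist are added. Across the 10 windows, 30 regions were bound in both PPARα and neither PPARα+ERα library, and 11 the reverse, out of 104 with a peak in any of the 4 libraries. These are 28.8% and 10.6%, where all regions of the genome gave 20.0% and 10.1%. PRKG1 supplied 19 of the 30 and 5 of the 11, and outside it the shares were 20.4% and 11.1%, close to the shares over all regions. All 30 regions occupied with PPARα lacked a PPARα+ERα peak, as did 95.0% of such regions over the genome. All 11 regions occupied with PPARα+ERα lacked a peak in the other 4 libraries, as 89.8% did among all regions. Regions with a peak in any library of both groups numbered 1 of 114, and 2.22% of all regions. With peaks on a local background of at most 3 times the genome-wide level, the counts were 2 and 10, the opposite direction. Over whole lists this cut kept 16.04% and 12.78% of PPARα peaks, against 74.25% and 76.88% of PPARα+ERα peaks. Shares of all regions under the cut were not computed, so whether the reversal is particular to these genes was not tested. Without PPARα+ERα library 1 the 11 became 37, without its library 2 it became 26, and without PPARα library 1 the 30 became 46, since a single library then decides for its group.

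ERβ was compared with the same PPARα libraries. In the 10 windows, 6 of 64 regions were bound in both PPARα and neither PPARα+ERβ library (9.38%, against 10.2% of all regions), 4 of them in PRKG1 and 2 in PDE1A. The reverse held for 1 region (1.56%, against 2.75%), the PDE1A region in DNAJC10. Of the 30 regions occupied with PPARα, 24 had a peak in at least 1 PPARα+ERβ library, and among all regions 69.3% did. Regions with a peak in any library of both groups numbered 29 of 114, against 21.9% of all regions. Leaving out 1 library at a time turned the 6 into 18 (PPARα library 1), 11 (PPARα library 2), 11 (PPARα+ERβ library 1) and 12 (PPARα+ERβ library 2). In that order the 1 became 2, 2, 9 and 4. This comparison and the one before it share their PPARα libraries.

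Between the co-transfected groups, 11 of 92 regions were occupied with PPARα+ERα and without a PPARα+ERβ peak (11.96%, against 11.4% of all regions). They lay in PDE1A (5), PRKG1 (5) and CORIN (1). The reverse held for 15 regions (16.3%, against 12.7%), 10 at PRKG1, 2 at PRKG2, 2 at NPR1 and 1 at PDE1A. Outside PRKG1 the shares were 12.5% and 10.4%. The 11 became 36 and 26 without PPARα+ERα library 1 and 2, and the 15 became 31 and 23 without PPARα+ERβ library 1 and 2. Within groups, 57.7% of the regions found in either PPARα library were in both (41.4% of all regions), 20.8% for PPARα+ERα (20.5%) and 39.0% for PPARα+ERβ (33.4%). Without PPARα+ERα library 1 or 2 the regions counted as occupied rose from 11 to 37 or 27, and without PPARα+ERβ library 1 from 16 to 33.

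Readouts that did not choose the members were then compared with each whole list. Median fragments at a summit were 42 and 50.5 in the PPARα libraries (35 and 50 over each whole list), 32 and 32 in the PPARα+ERβ libraries (27 and 29), but only 11 and 10 in the PPARα+ERα libraries (9 and 10). The median local background was 14.1 and 15.96 times the genome-wide level with PPARα (13.5 and 15.7 over the list). It was 9.89 and 9.74 times with PPARα+ERβ (9.34 and 8.53) and 2.57 and 1.96 times with PPARα+ERα (1.64 and 1.57). PPARα+ERα peaks had the fewest fragments and the lowest background, among member peaks and over whole lists. Peaks on a background up to 3 times numbered 21 of 27 and 27 of 37 in the PPARα+ERα libraries, against 2 of 36 and 4 of 46 (PPARα) and 2 of 24 and 6 of 33 (PPARα+ERβ). Depth and this background differed between PPARα+ERα and each other group without overlap. Between PPARα and PPARα+ERβ the depths overlapped, and the background was lower with PPARα+ERβ. Their part in the differences was not tested.

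**Figure D4:**
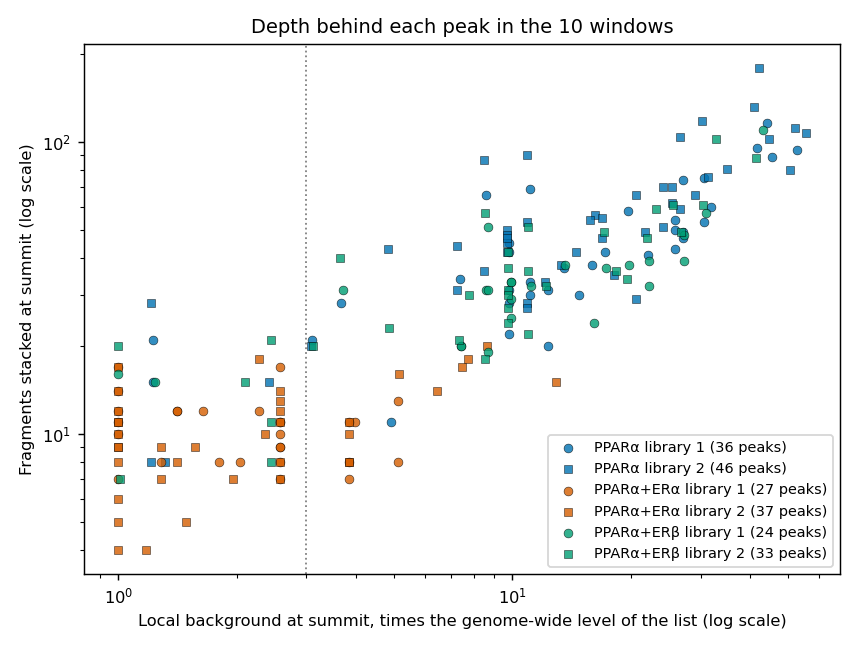
Fragments stacked at the summit against local background (both on log scales) for each of the 203 member peaks, coloured by group, with a dotted line at 3 times the genome-wide level. PPARα+ERα peaks lie at the lower left (medians 11 and 10 fragments), and PPARα and PPARα+ERβ peaks mostly to the right of the line (medians 32 to 50.5 fragments).

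Where libraries shared a member region, their summits fell close together. Of 142 pairs of peaks in a shared region, 114 (80.3%) had summits within 10 bp, compared with 75.3% of all 93429 such pairs, and the median distance was 1 bp in both. The local background also matched between libraries, within 1.1 times of each other in 39 of the 49 shared member regions (79.6%, against 81.5% of all shared regions). At the PDE1A region in all 4 PPARα and PPARα+ERβ libraries, for example, it was 27.0, 26.6, 27.2 and 26.8 times. The same values also recurred at unrelated regions. Both recurrent PRKG2 regions and the region in CHTOP had 9.82, 9.66, 9.89 and 9.74 times in those libraries. The match is therefore not particular to a region, and whether the lists shared a control is not stated. A region had its summit within 3 kb of an end of 5 of the 10 genes, PDE1A, PRKG1, NPR1, NPPA and CORIN, and of 34.1% of all protein-coding genes. All of these but NPPA had such a region occupied in a group, as did 12.8% of all protein-coding genes. Those of PRKG1, NPR1 and CORIN were at the 3′ end, and that of PDE1A lay inside DNAJC10. The CORIN region was also within 3 kb of an end of ATP10D.

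The wider pathway was examined through 39 further genes, covering soluble and other receptor cyclases, nitric oxide synthases, other phosphodiesterases, cGMP-gated channels, kinase substrates and cGMP exporters. An occupied region lay in the window of 26 of them in the PPARα group (66.7%, against 60.5% of all protein-coding genes). The numbers were 22 in the PPARα+ERβ group (56.4%, against 46.6%) and 14 in the PPARα+ERα group (35.9%, against 38.0%). Their windows reached 911 kb (PDE1C), and longer windows hold more peaks. Per Mb, the median of the 39 was below the median protein-coding gene in every library. It was 7.89 and 13.8 against 8.48 and 14.6 (PPARα). It was 7.86 and 7.86 against 8.53 and 9.14 (PPARα+ERα), and 5.53 and 7.71 against 7.03 and 9.07 (PPARα+ERβ). Only GUCY2F and CNGA2, a retinal cyclase and an olfactory channel subunit, had no peak at all. Regions within 3 kb of a gene end and occupied in a group were found at 4 of the 39 (10.3%, against 12.8% of all protein-coding genes). NOS3, endothelial nitric oxide synthase, had one with PPARα+ERα (chromosome 7, 151011614 to 151012240; fold 6.00 and 5.64) where it meets ATG9B. PDE6B, a rod phosphodiesterase subunit, had one with PPARα+ERα inside the neighbouring ATP synthase gene ATP5ME (chromosome 4, 672262 to 672611; 10.1 and 9.86). PDE11A, a phosphodiesterase of both cyclic nucleotides, had one with PPARα (chromosome 2, 178106963 to 178107290; 2.58 and 2.97). CNGB1, a channel subunit, had one with PPARα+ERβ (chromosome 16, 57971503 to 57971850, fold 1.93 and 2.34), which PPARα library 2 also had (2.56). The local background was 1.00 to 1.28 times the genome-wide level at the NOS3 and PDE6B regions. It was 49.1 and 48.3 times at the PDE11A region and 32.6 to 34.6 times at the CNGB1 region.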

How the data were processed

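HepG2 chromatin precipitated with anti-PPARα gave 6 peak lists, 2 for each of 3 groups. The authors deposited 1 MACS2 narrowPeak list per library, holding a score, a fold enrichment over local background, and −log10 p and −log10 q for each peak. Tools listed in the submitters' processing notes include MACS2 2.2.7.1, Bowtie 1.0.1 and Trim Galore 0.6.4, with builds hg38 and GRCh38.p13. The control given to the caller is not given in the sources used here, and neither are read totals. Library numbers are the order of deposit.

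Peaks on chromosomes 1 to 22 and X were merged over the 6 lists where they overlapped by at least 1 bp. Gene spans were RefSeq's on GRCh38.p14, and strand came from the promoter table. Fragments at each summit and the local background were solved from fold and p (within 0.001 for 100% of peaks). The genome-wide level was the lowest background shared by at least 0.5% of a list's peaks. The steps were tested on simulated data. SciPy 1.17.1, NumPy 2.4.6 and pandas 2.3.3 were used under Python 3.11.15, and figures were drawn with Matplotlib 3.10.9.

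The members and lists were chosen with earlier results of these data known. All 10 members were named. Regions in 2 or more libraries were given for each gene, or at PRKG1 12 of those occupied, ranked by libraries and then by −log10 q percentile. Other pathway genes were named where an occupied region lay within 3 kb of an end. With 2 libraries a group, counts without overlap give p = 0.333 in the exact permutation test, however far apart they are. The p-values cover only these libraries, whose differences may be technical. Alternatives were other windows, a −log10 q of at least 5, lists of equal length, 50% reciprocal overlap, low background, and leaving out each library. Peak sequences were not analysed here.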

Additional observations from a re-analysis of the deposited data

How the results depend on the processing

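Of 130 alternatives to the counts over all 10 genes, 95 stayed within 1.5 times of the value reported and 35 did not. The 114 regions became 45 when peaks on a local background over 3 times the genome-wide level were dropped. Under that setting regions occupied with PPARα fell from 30 to 2 and with PPARα+ERβ from 16 to 2, whereas those with PPARα+ERα were 10. PPARα sites without a PPARα+ERα peak numbered 2 and the reverse 10, so the direction turned. The cut removed most peaks of the whole PPARα lists and kept most of the PPARα+ERα lists. Whether the turn is particular to these genes was not tested. PPARα+ERβ sites without a PPARα+ERα peak numbered 2, and both counts between PPARα and PPARα+ERβ were 0. At −log10 q of 5 or more, the 11 regions occupied with PPARα+ERα, and found neither with PPARα nor with PPARα+ERβ, became 6, and with lists cut to 17457 peaks they became 7. With windows of 100 kb, regions with PPARα+ERβ and not PPARα numbered 2 and the reverse 10, and within gene spans alone the former numbered 0.

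Of 130 alternatives to the counts of occupied regions per gene, 28 moved by over 1.5 times. Dropping peaks on a background over 3 times left 5 such regions at PDE1A, 5 at PRKG1, 0 at PRKG2, 1 at NPR1 and 1 at CORIN. PRKG1 had 15 with lists of equal length, and NPR1 had 1 with windows of 10 kb or within its span. The others came from windows of 100 kb or from leaving out a library and stand in the report.

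Leaving out 1 library at a time gave 89 to 111 regions. Occupied regions ranged from 30 to 46 (PPARα), 11 to 37 (PPARα+ERα) and 16 to 33 (PPARα+ERβ). Regions with PPARα+ERα and not PPARα ranged from 11 to 37 and the reverse from 30 to 46. Regions with PPARα+ERβ and not PPARα ranged from 1 to 9 and the reverse from 6 to 18. Regions with PPARα+ERα and not PPARα+ERβ ranged from 11 to 36 and the reverse from 15 to 31. These counts rise because a lone library then stands for its group. Depth was lower with PPARα+ERα, and whether sites without a peak there were detectable was not tested. No paired analysis was possible because the labels give the libraries no shared replicate numbers.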
